A study of Homo sapiens with 4 samples.

Results

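The genes described here belong to the fibroblast growth factor (FGF) axis of liver cells: the ligands FGF19, FGF21 and FGF2, the receptors FGFR1, FGFR2, FGFR3 and FGFR4, the receptor-like protein FGFRL1, and the co-receptor beta-klotho, encoded by KLB. They were chosen by gene symbol, and 14 of the 28264 probes on the array carried one of the 9 symbols, so that all 9 were among the 19090 named genes measured. The cells were Huh7, an established human hepatocellular carcinoma line, stably expressing either an shRNA against ACOT12 (labelled shACOT12, 2 arrays) or a scramble shRNA (2 arrays), and both groups had been through 1 week of puromycin selection. ACOT12 is a cytosolic enzyme that hydrolyses acetyl-CoA, and the study asked which genes lie downstream of it. The labels do not say how many shRNA sequences were used, whether the lines were pools or clones, or whether a group's 2 arrays are of independent cultures. The p-values therefore cover the spread among these 4 arrays, which may be technical.

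FGF19 and FGF21 are endocrine members of the FGF family: they bind heparan sulphate weakly, travel in blood, and need beta-klotho beside an FGF receptor to signal. FGF19 is released by the ileum when bile acids return there, and in hepatocytes it acts through FGFR4 and beta-klotho to repress bile acid synthesis, while some liver cancers make FGF19 themselves. FGF21 is a hormone of the liver, induced by fasting and by nutrient and protein stress, and FGF2 is a locally acting ligand held by heparan sulphate.

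No gene of the axis differed between shACOT12 and scramble cells beyond the error of these arrays. With limma, 0 of the 9 genes passed a Benjamini-Hochberg adjusted p of 0.05, against 0.00524% of all genes, 0 of their 14 probes passed it in a fit by probe, against 0.00354% of all probes, and 0 had an unadjusted p under 0.05, against 1.76% of all genes. Their log2 fold changes, shACOT12 minus scramble throughout, ran from -0.02 for FGFR3 to 0.44 for FGF2. The median over the 9 genes was 0.07, beside 0.0078 over all genes, and 8 of the 9 were above 0, beside 51.4% of all genes. The adjusted p was 1 for each of the 9. In RNA from a whole culture, fewer expressing cells and less RNA per cell cannot be told apart.

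The targeted gene and the cell type were checked first. The 1 probe for ACOT12 read 155.8 and 206.9 in shACOT12 cells against 302.4 and 177.7 in scramble cells, in deposited intensity units, and the groups overlapped. The log2 difference was -0.40 (95% confidence interval -1.24 to 0.44, with an adjusted limma p of 1), so these arrays did not show a lower ACOT12 mRNA. With 1 array left out the difference ranged from -0.80 to 0.0079, the latter without scramble replicate 1. The ACOT12 probe was below the median of all genes, with 35.4% to 46.6% of probes at or below it, and no detection flag was used. Of the hepatocyte markers, 12 of 14 listed genes were analysed here, and on each array at least 66.0% of probes were as dim as or dimmer than the dimmest of them. Of fibroblast, endothelial, leukocyte and enterocyte markers, 2 of 10, 0 of 8, 2 of 8 and 5 of 8 were at or above the median of all genes. Among these, LYZ and CDX2 had at least 93.6% and 88.3% of probes at or below them on each array. Brightness alone thus does not single out hepatocytes. The median intensity was 327 and 451 on shACOT12 replicates 1 and 2 and 377 and 395 on scramble replicates 1 and 2, and the arrays were quantile normalized on the log2 scale before the fit. With 2 arrays a group, the number of arrays limits the precision of every value, and an exact permutation test could not reach a two-sided p below 0.333.

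FGF19 was read clearly above the middle of the array in every sample. Its deposited intensity was 1039.6 and 1591 in shACOT12 cells, against 1300.5 and 1186 in scramble cells. Both shACOT12 values lay outside the 2 scramble values, one below and one above, so the groups overlapped. Between 65.0% and 68.7% of all probes of an array were at or below it. On the normalized log2 scale it averaged 10.35 ± 0.29 in shACOT12 and 10.27 ± 0.14 in scramble cells (mean ± SD, n = 2 each). The difference of 0.08 (SE 0.30, limma adjusted p = 1) had a 95% confidence interval of -0.63 to 0.79, so the arrays allow anything between 0.647 and 1.73 times the scramble level. Leaving out 1 array at a time gave -0.13 to 0.28, with both signs.

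FGF21 was dim. Its intensity was 23.7 and 63.0 in shACOT12 cells, against 45.0 and 23.8 in scramble cells, and only 5.72% to 11.04% of probes were at or below it. The shACOT12 arrays held both the lowest and the highest of the 4 values. The log2 mean was 5.28 ± 0.29 in shACOT12 and 5.04 ± 0.40 in scramble cells (n = 2 each), a log2 difference of 0.25 (SE 0.33, 95% confidence interval -0.54 to 1.03, limma adjusted p = 1). No detection flag was used here, so it cannot be said whether this probe was above background. Without scramble replicate 2 the value was -0.05 and without scramble replicate 1 it was 0.53.

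FGF2 had the largest difference of the 9 genes, and its groups did not overlap on the probe used. The intensity of that probe was 218 and 233 in shACOT12 cells, against 159 and 175 in scramble cells. Both shACOT12 arrays were above both scramble arrays. The log2 mean was 7.80 ± 0.33 in shACOT12 and 7.37 ± 0.08 in scramble cells (n = 2 each), a log2 difference of 0.44 (SE 0.30, 95% confidence interval -0.28 to 1.15, limma adjusted p = 1). A difference of this size or larger was seen for 11.7% of all genes. The second FGF2 probe read 79.0 and 131 in shACOT12 cells and 93.9 and 76.9 in scramble cells, where the deposited values overlapped, while the normalized values lay apart with shACOT12 higher, and its log2 fold change was 0.26 (SE 0.28). Both probes were below the median of their arrays, and with 1 array left out the first ranged from 0.20 to 0.68.

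**Figure D1:**
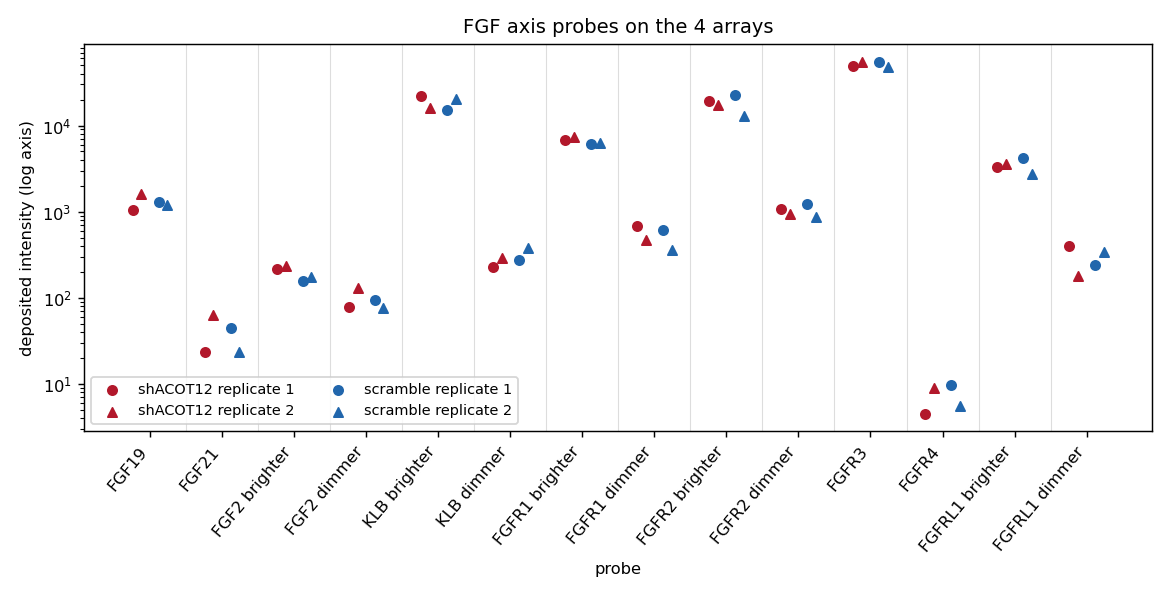
Deposited intensity (log axis) of the 14 probes of the FGF axis genes, 1 point per array, with shACOT12 arrays in red on the left of each column and scramble arrays in blue on the right. For most probes red and blue points interleave, as for FGF19 with 1039.6 and 1591 in shACOT12 cells and 1300.5 and 1186 in scramble cells, and FGFR4 lies lowest, between 4.51 and 9.79.

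KLB encodes beta-klotho, the single-pass membrane protein that gives FGF19 and FGF21 their hold on FGF receptors. Its brighter probe read 21787 and 15889 in shACOT12 cells, against 15302 and 20224 in scramble cells. The high values came from 1 array of each group, shACOT12 replicate 1 and scramble replicate 2. The log2 mean was 14.17 ± 0.29 in shACOT12 and 14.11 ± 0.31 in scramble cells (n = 2 each), a log2 difference of 0.06 (SE 0.31, 95% confidence interval -0.69 to 0.81, limma adjusted p = 1). The difference was thus smaller than the SD within either group. The dimmer KLB probe read 229 and 289.9 in shACOT12 cells and 276 and 380.1 in scramble cells, and its log2 fold change was -0.34 (SE 0.30, limma adjusted p = 1 over all probes). Its groups overlapped as deposited and lay apart, shACOT12 lower, after normalization, so the 2 KLB probes differed in sign. Averaging them gave -0.14.

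The 4 FGF receptors are receptor tyrosine kinases that share an extracellular part of immunoglobulin-like domains and a split kinase domain inside the cell. FGFR1, the receptor through which FGF21 mainly acts in fat and brain, had the smallest range of the 9 genes when single arrays were left out. Its brighter probe read 6839 and 7329.55 in shACOT12 cells, against 6069.8 and 6295 in scramble cells. The groups did not overlap, and the 2 arrays of each group lay close together. The log2 mean was 12.79 ± 0.06 in shACOT12 and 12.58 ± 0.03 in scramble cells (n = 2 each), a log2 difference of 0.21 (SE 0.27). The 95% confidence interval of -0.43 to 0.86 (limma adjusted p = 1) spans 0.741 to 1.81 times the scramble level. The SE is wider than the 2 SDs because limma draws each gene's variance towards that of all genes. Without 1 array the value stayed between 0.17 and 0.25, and 37.9% of all genes differed by as much or more.

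The dimmer FGFR1 probe behaved differently among the arrays. It read 675 and 469.8 in shACOT12 cells and 608.6 and 362.7 in scramble cells, with both replicate 1 arrays above both replicate 2 arrays. Its log2 fold change was 0.23 (SE 0.44), close to that of the brighter probe, but its SD was 0.65 in shACOT12 and 0.58 in scramble cells. FGFR1 and FGF2 were the 2 of 9 genes whose groups did not overlap, both higher in shACOT12 cells. Over all genes the groups did not overlap for 21.5%, and for 11.5% with shACOT12 higher. The 2 of 9 genes were thus near the share for either direction and above the share with shACOT12 higher. With shACOT12 lower it was 0 of 9 genes, beside 10.0% of all genes. These small counts were not tested.

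FGFR2, a receptor with epithelial and mesenchymal splice forms, was bright and uneven between scramble arrays. Its brighter probe read 19048 and 17437 in shACOT12 cells, against 22372 and 13045 in scramble cells. The scramble values enclosed the shACOT12 values, and their SD was 0.54 on the log2 scale, against 0.07 for shACOT12 (n = 2 each). The groups differed by 0.07 (SE 0.34, limma adjusted p = 1), with a 95% confidence interval of -0.74 to 0.89. Without scramble replicate 1 it was 0.47 and without scramble replicate 2 it was -0.31. The dimmer probe had the same order of arrays, with 1067 and 933 in shACOT12 cells and 1234 and 866 in scramble cells, and a log2 difference of -0.05 (SE 0.34).

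FGFR3 gave the narrowest result among the receptors other than FGFR1. It read 48877 and 54319 in shACOT12 cells, against 55218 and 47308 in scramble cells, and at least 96.9% of probes were at or below it on every array. Each group held 1 high and 1 low array. The log2 mean was 15.64 ± 0.11 in shACOT12 and 15.66 ± 0.11 in scramble cells (n = 2 each), a log2 difference of -0.02 (SE 0.28, limma adjusted p = 1). The 95% confidence interval was -0.68 to 0.64, or 0.623 to 1.56 times the scramble level. The sign turned with the values as deposited (0.012) and with 75th percentile scaling (0.041).

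FGFR4, the receptor that pairs with beta-klotho for FGF19 in hepatocytes, was listed at the very bottom of the scale. Its 1 probe read 4.51 and 8.997 in shACOT12 cells, against 9.79 and 5.50 in scramble cells, and no more than 1.96% of probes were at or below it on any array. The reading comes from 1 probe without a detection flag, and whether that probe reports the transcript was not tested. Quantile normalization turned the order of the shACOT12 arrays, to log2 values of 3.55 and 1.43, against 2.29 and 2.55 in scramble cells. The difference of 0.07 (SE 0.64, 95% confidence interval -1.46 to 1.60, limma adjusted p = 1) therefore measures nothing beyond the lowest part of the scale. It was -0.20 with the values as deposited and -0.41 with cyclic loess, and it ranged from -1.32 to 1.28 with 1 array left out, without shACOT12 replicate 1 and 2 in that order.

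FGFRL1 resembles an FGF receptor outside the cell but lacks the tyrosine kinase, and can bind FGF ligands. Its brighter probe read 3269 and 3554 in shACOT12 cells, against 4201 and 2745 in scramble cells. As for FGFR2, the scramble values enclosed the shACOT12 values. The log2 mean was 11.75 ± 0.02 in shACOT12 and 11.71 ± 0.46 in scramble cells (n = 2 each), a log2 difference of 0.04 (SE 0.32, 95% confidence interval -0.73 to 0.81, limma adjusted p = 1). The dimmer probe ordered the arrays differently, with 399.6 and 178.9 in shACOT12 cells and 237.8 and 343.5 in scramble cells, and gave -0.14 (SE 0.56). Without scramble replicate 1 the brighter probe gave 0.37 and without scramble replicate 2 it gave -0.29.

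**Figure D2:**
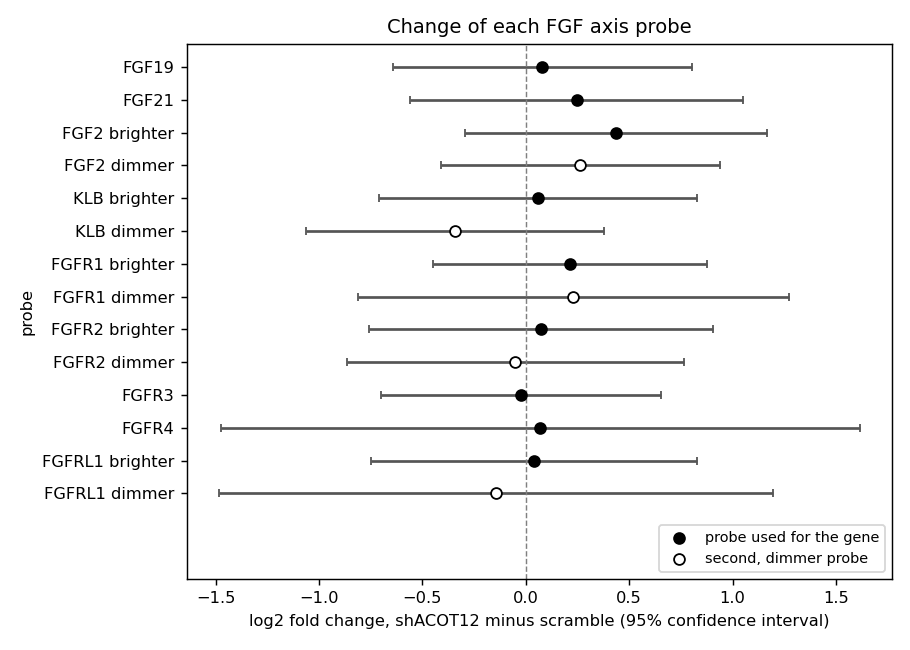
Log2 fold change, shACOT12 minus scramble, of each of the 14 probes (points) with its 95% confidence interval from the limma fit over all probes; filled points mark the probe used for the gene and open points a second, dimmer probe. Every interval includes 0, and the widest, for FGFR4 and the dimmer FGFRL1 probe, reach beyond 1 in both directions.

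The intervals say how large a change the arrays could have missed. For 6 of the 9 genes, those other than FGF21, FGF2 and FGFR4, the normalized mean was at or above the median of all genes, and the upper ends of their intervals ran from 1.56 times the scramble level for FGFR3 to 1.85 times for FGFR2. The lower ends for these 6 ran from 0.597 times for FGFR2 to 0.741 times for FGFR1. For FGF21 and FGF2 the interval reached 2.05 and 2.22 times the scramble level. The intervals of FGF21 and FGF2 thus still held a level 2 times that of scramble cells, and that of FGFR4 ran from 0.363 to 3.04 times. For each of the other 6 genes a 2-fold change in either direction lay outside the interval of the probe used. The second, dimmer probes of FGFR1 and FGFRL1 were less precise than the brighter ones, while those of FGF2, KLB and FGFR2 were not. A 2-fold change lay inside the interval for the dimmer probes of FGFR1 (0.570 to 2.41 times), KLB (0.479 to 1.30 times) and FGFRL1 (0.357 to 2.29 times). For KLB that interval lay around a log2 fold change of -0.34, opposite in sign to the brighter probe.

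The order of the arrays differed from gene to gene. After normalization 4 genes, FGF19, FGF21, FGFR3 and FGFRL1, had their 2 highest values on shACOT12 replicate 2 and scramble replicate 1, an order seen for 16.7% of all genes. KLB and FGFR4 had theirs on the opposite arrays, shACOT12 replicate 1 and scramble replicate 2, as did 13.9% of all genes. FGFR2 was highest on both replicate 1 arrays, as were 22.6% of all genes. The array with the highest median intensity was shACOT12 replicate 2 and the one with the lowest was shACOT12 replicate 1, and the part of this in the order of the members was not tested. With 1 array left out at a time, only FGF2 and FGFR1 kept the sign of the value from all 4 arrays in every case. These are the genes whose groups did not overlap. Apart from the new normalization, such groups must keep their sign when 1 array is dropped, so this adds no separate evidence.

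**Figure D3:**
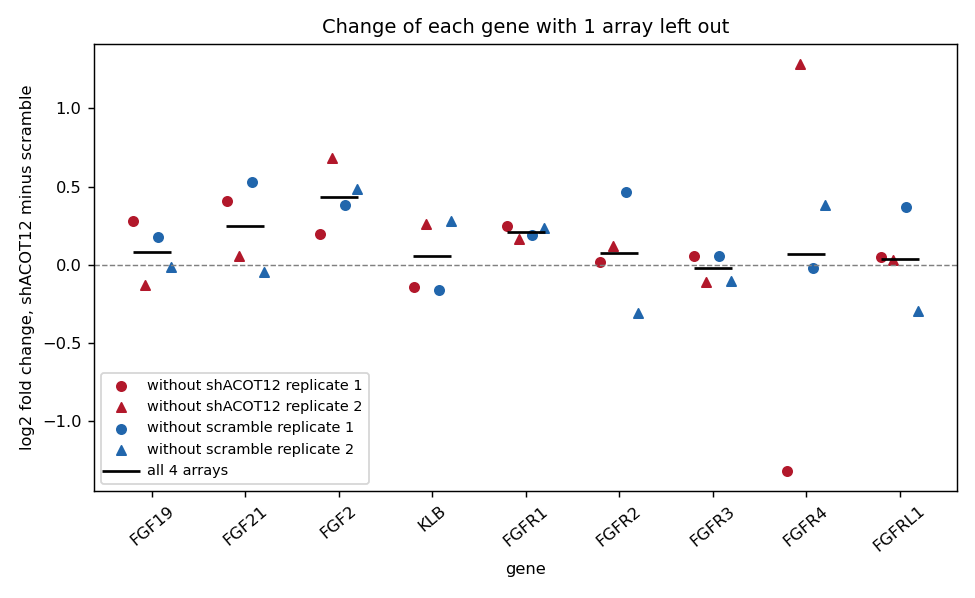
Log2 fold change, shACOT12 minus scramble, of each gene with all 4 arrays (black bars) and with 1 array left out (red for a shACOT12 array, blue for a scramble array). FGFR1 stays within 0.17 to 0.25, while FGFR4 moves between -1.32 and 1.28 and FGFR2 between -0.31 and 0.47.

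Among genes with a mean at or above the median, the profiles nearest to that of FGFR1 over the 4 arrays were those of MED19, SMC6 and RPS3A, at Euclidean distances of 0.0258, 0.0267 and 0.0276 between log2 values centred on each gene's own mean. As many as 580 of 9544 genes lay within 0.2 of FGFR1, and a gene with 4 equal values would lie at 0.222, so likeness over 4 arrays singles out no gene.

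The other genes of the pathway were taken from 7 lists, and 0 of their genes passed the adjusted threshold in either direction, against 0.00524% of all genes. The lists held 126 different genes, of which 5 (FGF17, DUSP4, HS6ST2, SDC4 and ANO1, or 3.97%) had an unadjusted limma p under 0.05, beside 1.76% of all genes. As background for each list, 51.4% of all genes were higher in shACOT12 cells, and their median log2 difference was 0.0078. The other FGF ligands had 13 of 19 genes higher in shACOT12 cells and a median difference of 0.06 on the log2 scale. That median was 0.18 without shACOT12 replicate 1 and -0.17 without shACOT12 replicate 2. Of the 19, 1 had a mean at or above the median of all genes. This was FGF17, a ligand of the FGF8 subfamily, with an intensity of 1379 and 1323 in shACOT12 cells, against 909 and 717 in scramble cells. Its groups did not overlap, and its log2 fold change was 0.76 (SE 0.30, limma adjusted p = 1), with 0.55 to 0.96 when 1 array was left out. The rule that named genes from the lists took only those whose groups did not overlap, a trait of 21.5% of all genes. For genes named by that rule, a constant sign with 1 array left out follows from the choice. FGF11, an intracellular member of the family, had the lowest value, -0.41.

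Adaptors and relay proteins carry the signal from the receptor to the ERK kinases. Of these, 14 of the 16 analysed here (6 more were listed and not analysed here) had lower values in shACOT12 cells. Among all genes, 9274 of 19090 were lower. The median difference of the 16 was -0.28, beside 0.0078 over all genes. It was -0.50 without scramble replicate 1 and -0.07 without scramble replicate 2. The groups did not overlap for 4 of 16, all lower in shACOT12 cells, beside 21.5% of all genes in either direction and 10.0% with shACOT12 lower. PTPN11, the phosphatase SHP2 that links receptors to RAS, read 22085 and 20186 in shACOT12 cells, against 27499 and 31341 in scramble cells, a log2 difference of -0.52 (SE 0.28). SHC1, an adaptor, read 10076 and 9867 in shACOT12 cells, against 10560.2 and 21881 in scramble cells. Its value of -0.63 (SE 0.40) thus rests on scramble replicate 2, and without that array it was -0.09. PLCG1, a phospholipase that docks on the receptor, stood at -0.37 (SE 0.28). The limma adjusted p of these 3 genes was 1.

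Feedback and target genes of FGF and ERK signalling went both ways, with 9 of 24 higher and 15 lower and a median of -0.07, which was -0.28 without scramble replicate 1 and 0.07 without shACOT12 replicate 1. DUSP4, a nuclear phosphatase of ERK, read 3385 and 2812 in shACOT12 cells, against 4831 and 5508 in scramble cells, a log2 difference of -0.72 (SE 0.29, limma adjusted p = 1). The mean of its 2 probes gave -0.39, for which the unadjusted p was above 0.05. FLRT3, a membrane protein that binds FGF receptors, read 37795 and 33333 in shACOT12 cells, against 27615 and 21882 in scramble cells, and stood at 0.50 (SE 0.28). The transcription factors ETV4 and MYC stood at -0.54 and -0.51 (SE 0.36 and 0.33). For both, scramble replicate 2 was well above the other 3 arrays, and without it the values were -0.10 and -0.17.

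Heparan sulphate proteoglycans, their enzymes and FGF carriers numbered 25, of which 10 were higher and 15 lower, with a median of -0.09, which was 0.12 without shACOT12 replicate 1 and -0.14 without shACOT12 replicate 2. HS6ST2, a heparan sulphate 6-O-sulphotransferase, read 2337 and 2326 in shACOT12 cells, against 1406 and 1433 in scramble cells, a log2 difference of 0.74 (SE 0.27, limma adjusted p = 1). The 2 arrays of each group nearly coincided, and leaving out 1 array gave 0.67 to 0.82. SDC4, a heparan sulphate-bearing syndecan, read 619.7 and 683 in shACOT12 cells, against 909 and 1328 in scramble cells, and stood at -0.75 (SE 0.31, limma adjusted p = 1). EXT1, a heparan sulphate polymerase, stood at -0.44 (SE 0.31), or -0.16 without scramble replicate 2. NDST1, which begins the sulphation of the chain, stood at 0.29 (SE 0.29), at 0.092 with the mean of its 2 probes, and at 0.15 to 0.43 with 1 array left out, lowest without shACOT12 replicate 1 or scramble replicate 2.

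**Figure D4:**
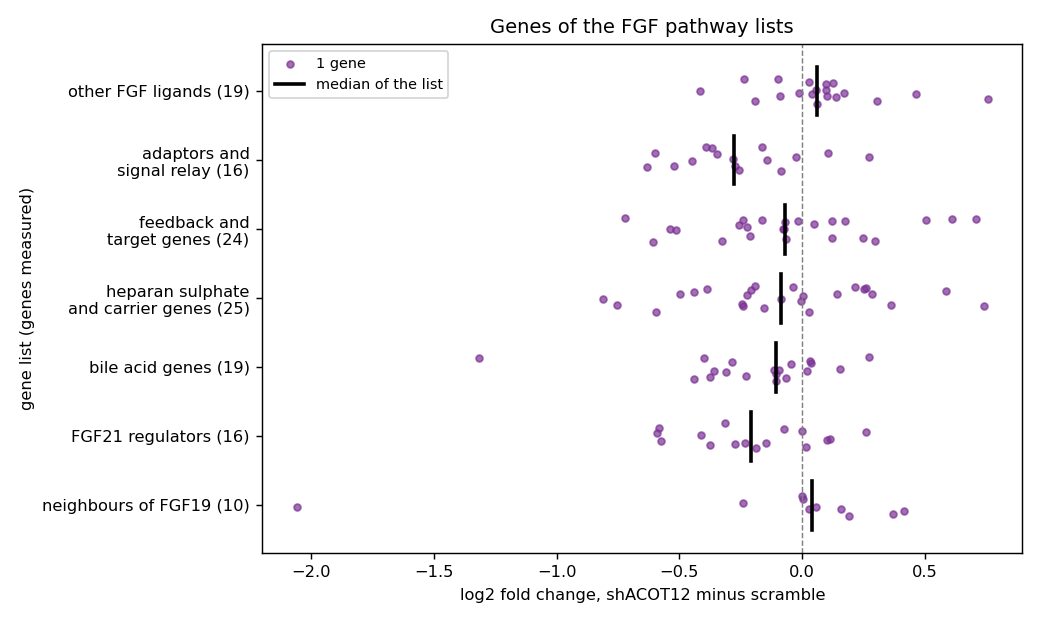
Log2 fold change, shACOT12 minus scramble, of the genes in the 7 lists around the FGF axis (1 point per gene, a black bar at the median of the list, the number of genes measured in brackets). The medians lie between -0.28 for adaptors and relay proteins and 0.06 for the other FGF ligands, and the lowest point, at -2.06, is ANO1.

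The list of bile acid genes around FGF19 was not limited to genes that FGF19 controls in hepatocytes, so it is no readout of FGF19 action. It had 5 of 19 members higher and 14 lower, beside 51.4% of all genes higher, with a median of -0.11. That median was 0.0086 without shACOT12 replicate 1 and -0.28 without shACOT12 replicate 2. The member named by brightness and separation was SLC51B, a subunit of the basolateral bile acid exporter, at -0.40 (SE 0.30), with 5874 and 8108 in shACOT12 cells against 8501 and 9767 in scramble cells. Without shACOT12 replicate 1 it was -0.18 and without shACOT12 replicate 2 it was -0.62. Named here after their values were seen, as the main genes of FGF19 action, were CYP7A1 and NR0B2. CYP7A1, the rate-limiting enzyme of bile acid synthesis, was dim at 13.5 and 85.0 in shACOT12 cells and 47.0 and 33.0 in scramble cells, and its log2 fold change was -0.11 (95% confidence interval -1.31 to 1.10). NR0B2, the repressor SHP, read 1847 and 2815 in shACOT12 cells and 1944 and 2727 in scramble cells, and stood at 0.02 (95% confidence interval -0.74 to 0.78). Its groups interleaved, with both replicate 2 arrays above both replicate 1 arrays. The limma adjusted p was 1 for these 3 genes.

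Regulators of FGF21 transcription were lower for 11 of 16 members, beside 9274 of all 19090 genes. Their median of -0.21 stayed between -0.24 and -0.10 with 1 array left out. PPARG, a fatty acid-sensing nuclear receptor, stood at -0.59 (SE 0.37), with 5469.9 and 6581 in shACOT12 cells against 6650.04 and 12361 in scramble cells, and at -0.15 without scramble replicate 2. THRB, a thyroid hormone receptor, stood at -0.41 (SE 0.27), or at -0.19 with the mean of its 4 probes. RXRA, the partner of many nuclear receptors, stood at -0.19 (SE 0.27), or at -0.11 without scramble replicate 2. The limma adjusted p was 1 for each.

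The genes around FGF19 on its chromosome, a stretch that is co-amplified in some liver cancers, included 8 of 10 with higher values and 2 with lower ones. Over all genes 51.4% were higher. Of the 8, FADD, CTTN, FGF3 and FGF4 were near 0, at 0.0018, 0.0052, 0.027 and 0.058 (SE 0.27 to 0.30). The largest of the 8 was MYEOV, at 0.42 (SE 0.56). The median of the list was 0.04, which was -0.067 without shACOT12 replicate 2 and 0.0035 when all probes of each gene were averaged. CCND1, which encodes cyclin D1, read 20039.8 and 17598 in shACOT12 cells, against 22589 and 20791 in scramble cells, a log2 difference of -0.24 (SE 0.27), or -0.16 without shACOT12 replicate 2. LTO1, the gene next to FGF19, read 2961 and 2689 in shACOT12 cells, against 2552 and 1929.88 in scramble cells, a log2 difference of 0.37 (SE 0.31), which was 0.61 without scramble replicate 1, 0.13 without scramble replicate 2 and 0.25 without shACOT12 replicate 1. The limma adjusted p was 1 for both. ANO1, a calcium-activated chloride channel 3 genes from FGF19, was singled out after its values were seen. It read 58.7 and 129.96 in shACOT12 cells, against 283 and 476 in scramble cells, below the median of all genes. Its log2 fold change was -2.06 (SE 0.35, limma adjusted p = 1), its second probe gave 0.12, and the mean of both gave -0.97. With the replicate number as a block the limma adjusted p of ANO1 was 0.0131. That fit called 25 of 19090 genes, against 1 without the block, and the labels do not say that the number marks a shared culture. Without 1 array the log2 fold change of ANO1 ranged from -2.41 to -1.70.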

How the data were processed

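Total RNA was amplified to aminoallyl RNA and labelled with the single dye Cy5, as the labels' protocols state. The authors deposited linear intensities, 1 column per sample; scanner, background correction and scaling are not given in the sources used here, and some values were below 0. From these deposited intensities, values under 1 were raised to 1 and converted to log2. The array medians then differed by 0.462, so the arrays were quantile normalized, which would hide a shift of most genes. Of 28264 probes, 25893 had 1 symbol in the platform's annotation, 0 had several and 2371 had none; all 25893 matched a RefSeq gene identifier. A gene was represented by its brightest probe over all 4 arrays. No probe sequence was used, so transcripts read by a probe are not known here.

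Groups were taken from the sample titles and compared by lmFit and eBayes (limma 3.58.1, R 4.3.3) over all 19090 genes or 28264 probes, without a block, with Benjamini-Hochberg adjustment at 0.05. The fit had 2 residual and 4.69 prior degrees of freedom and was run on simulated data. The simulation drew variances from the fit's own prior, with independent arrays and no normalization. It therefore checks the code and cannot show how well the intervals hold for these arrays. Named were ACOT12, the 9 genes with all probes, the 3 profiles nearest to the brighter gene with the largest difference (FGFR1), and up to 4 genes per list with the largest difference among those at or above the median whose groups did not overlap. The genes and lists were chosen with earlier results of these data known. Markers of fibroblast, endothelial, leukocyte and enterocyte cells were also listed, and 2 of 10, 0 of 8, 2 of 8 and 5 of 8 were at or above the median of all genes. Alternatives were 3 other scalings, a higher floor, a filter on dim genes, the mean of probes, an intensity trend, a robust prior, the replicate block and leaving out each array.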

Additional observations from a re-analysis of the deposited data

How the results depend on the processing

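In every alternative tried, 0 of the FGF axis genes that gave a value passed the adjusted threshold; this covered 9 genes, or 7 with the 20th percentile floor and with the filter on dim genes. Their probes, fitted by probe in each alternative except the mean of probes, also gave 0. The count of these genes with an unadjusted limma p under 0.05 was 1 with values under the 20th percentile raised to it (FGFR1). That floor also raised such calls among all 19090 genes, to 672 against 336 in the comparison as reported. With 1 array left out, FGFR4 differed in opposite directions (-1.32 without shACOT12 replicate 1, 1.28 without shACOT12 replicate 2). Over all genes the count past the threshold was 0 with values as deposited, 75th percentile scaling, cyclic loess or the 20th percentile floor, 3 with an intensity trend, 25 with the replicate block, and 0 to 0 with 1 array left out and the other 3 normalized again, against 1 in the comparison as reported; the cause was not tested.

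Of 77 values of the 9 genes under alternatives other than leaving out an array, 7 changed direction. FGFR3 was 0.012 as deposited and 0.041 with 75th percentile scaling. FGFR4 was -0.20, -0.17 and -0.41 with values as deposited, 75th percentile scaling and cyclic loess. With the mean of probes KLB was -0.14 and FGFRL1 -0.053. NR0B2 was -0.014 as deposited and CYP7A1 0.023 with the 20th percentile floor. That floor put FGF21 and FGFR4 at 1 value on all arrays, and the filter on the dimmest 30% left out FGF21 and FGFR4, so these gave no value. With 1 array left out FGF19 ranged from -0.13 to 0.28, FGF21 from -0.047 to 0.53, KLB from -0.16 to 0.28, FGFR2 from -0.31 to 0.47, FGFR3 from -0.11 to 0.058, FGFR4 from -1.32 to 1.28, FGFRL1 from -0.29 to 0.37, ACOT12 from -0.80 to 0.0079, CYP7A1 from -0.94 to 0.63 and NR0B2 from -0.21 to 0.25.

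Same-numbered arrays of the groups deviated together over genes with a correlation of 0.183, or 0.28 over genes at or above the median. The labels do not say that a number marks a shared culture, and there are only 2 numbers. Over all genes the least alike pair was the 2 shACOT12 arrays (Pearson r = 0.979). The most alike pair was shACOT12 replicate 1 with scramble replicate 1 (Pearson r = 0.988), so by this measure the arrays did not group by shRNA. The replicate block called 0 of the 9 genes and, among the genes of the 7 lists, ANO1. Signal over background is unknown for the dim probes of FGF21 and FGFR4, which limits what can be said of either.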
